A study of Homo sapiens with 12 samples.

Results

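The genes of the epidermal growth factor (EGF) system that were followed in A549 cells, a line from a human lung adenocarcinoma, were 3 receptors (EGFR, ERBB2 and ERBB3), 5 ligands (AREG, EREG, HBEGF, TGFA and BTC), the feedback inhibitor ERRFI1 and the protease ADAM17. They were chosen by gene name, and each name matched 1 gene, which gave 10 of the 60617 genes in the deposited tables. The choice was made with earlier results of these data known, so shares set beside those of all genes are descriptions only. RNA was sequenced in 12 libraries from 2 experiments, each compared only within itself. In the knockdown, 3 libraries of shBTLA cells, which carried a short hairpin RNA against the immune checkpoint receptor BTLA, were set against 3 of shControl cells, which the methods describe as carrying the empty lentiviral vector. In the sort, 3 libraries of BTLA low cells were set against 3 of BTLA high cells, subpopulations of the same line separated by flow cytometry with a labelled BTLA antibody. The hairpin that was sequenced is not named in the sources used here, and the study describes culture of the sorted cells before they were profiled. All libraries came from cells grown in serum. The labels do not say whether the replicates were separate cultures, so the p-values measure the spread between libraries, which may be technical.

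Ligands of the EGF family are made as membrane proteins, are released by proteases such as ADAM17 and bind receptor tyrosine kinases of the ERBB family on the same or a neighbouring cell. The bound receptors pair with each other, and the pairs activate the RAS, ERK and PI3K pathways. EGFR signalling also induces inhibitors of itself, of which ERRFI1 is 1, and in lung adenocarcinoma EGFR and ERBB2 are well known as drivers when mutated or amplified.

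Whole reads per gene were recovered from the deposited RPKM values, and levels are given as reads of the gene divided by the reads of the library and scaled (RPM). Depth was 29130357 to 41748767 reads per library among the knockdown samples, and 29383169 to 42488067 among the sorted ones. At these depths a gene with no read may still have had up to 3, or 0.0706 to 0.103 RPM, which covers counting error only. A gene was called changed at a Benjamini-Hochberg adjusted p under 0.05 in limma, fitted across all genes tested on log2(RPM + 0.1). In the knockdown 244 of 16630 genes were called (1.47%), of which 130 were higher (0.782%) and 114 lower (0.686%), and this count ranged from 25 to 484 when any 1 of the 6 libraries was left out. In the sort 4295 of 16911 genes were called (25.4%), 3238 higher (19.1%) and 1057 lower (6.25%), and 1996 without BTLA high 1 and 2128 without BTLA low 3. The median of all genes was shifted by 0.18 (log2) in BTLA low cells, and scaling to the median of ratios removed this shift, so values relative to it are given beside those of the sort. Under that scaling the split of calls over all genes was 2035 higher (12%) and 2298 lower (13.6%). BTLA itself had 0 reads in 10 of the 12 libraries and at most 2 in any, so its level could not be checked at this depth. Reads of ribosomal protein genes made up 8.67 to 10.4% of the shBTLA and 6.24 to 10.5% of the shControl libraries, and 5.74 to 7.33% of the BTLA low and 7.15 to 9.35% of the BTLA high libraries. Of the 5 epithelial markers, KRT8 and KRT18 made up most of the sum, which was 12100 to 14700 RPM in shBTLA and 5840 to 9530 RPM in shControl cells, and 17700 to 20800 RPM in BTLA low and 12000 to 15300 RPM in BTLA high cells. The 5 lymphocyte markers summed to at most 0.259 RPM, with 5 of 5 at 0 in all libraries of the sort.

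Promoter sequences from RefSeq (GRCh38.p14) were matched by symbol for 9 of the 10 genes. The 250 bases before the start of transcription are shown for AREG and EREG, neighbouring genes with the highest levels of the 5 ligands, and for ERBB2, ERRFI1 and HBEGF, which were called in the sort. For ERBB2 the RefSeq start used lies inside the deposited gene span, which begins at 39687914, and so does part of its window. Capitals mark the words found, which are TGACGTCA and TATAAA in AREG and CATTCC and TATAAA in EREG.
AREG (chr4:74444886-74445135, plus strand): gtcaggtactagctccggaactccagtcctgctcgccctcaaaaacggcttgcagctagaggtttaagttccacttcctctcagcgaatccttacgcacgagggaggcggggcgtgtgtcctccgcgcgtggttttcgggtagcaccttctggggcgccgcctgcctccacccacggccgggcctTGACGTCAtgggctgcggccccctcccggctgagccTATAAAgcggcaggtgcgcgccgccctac
EREG (chr4:74364895-74365144, plus strand): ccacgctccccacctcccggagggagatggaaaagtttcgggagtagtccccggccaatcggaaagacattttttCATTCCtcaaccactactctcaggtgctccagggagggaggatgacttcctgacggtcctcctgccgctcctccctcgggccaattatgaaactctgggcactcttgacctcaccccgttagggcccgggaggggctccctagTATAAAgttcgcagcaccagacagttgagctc
ERBB2 (chr17:39687844-39688093, plus strand): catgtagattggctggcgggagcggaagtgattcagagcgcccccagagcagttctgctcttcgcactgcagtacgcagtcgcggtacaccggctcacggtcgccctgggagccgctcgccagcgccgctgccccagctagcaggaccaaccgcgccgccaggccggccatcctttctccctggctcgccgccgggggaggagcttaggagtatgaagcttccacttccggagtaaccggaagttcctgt
ERRFI1 (chr1:8026310-8026559, minus strand): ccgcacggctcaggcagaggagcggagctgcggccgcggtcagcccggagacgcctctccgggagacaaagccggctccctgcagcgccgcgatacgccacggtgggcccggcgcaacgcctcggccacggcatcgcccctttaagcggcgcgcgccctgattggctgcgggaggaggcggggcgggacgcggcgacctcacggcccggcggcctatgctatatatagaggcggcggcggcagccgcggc
HBEGF (chr5:140346604-140346853, minus strand): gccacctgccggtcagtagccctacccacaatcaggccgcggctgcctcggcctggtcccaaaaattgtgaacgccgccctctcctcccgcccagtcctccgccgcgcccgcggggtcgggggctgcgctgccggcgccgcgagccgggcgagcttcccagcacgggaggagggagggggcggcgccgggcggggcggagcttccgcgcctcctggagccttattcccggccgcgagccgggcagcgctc

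Windows of 300 bases, which reach 50 bases past the start, were searched on both strands for the cyclic AMP response element TGACGTCA, the AP-1 word TGACTCA with its reverse complement TGAGTCA, the TEAD word GGAATG with its reverse complement CATTCC, and TATAAA, the core of the TATA box. The last was added after the sequences had been seen, and no word overlaps another in the windows printed. TGACGTCA was found in 1 gene, AREG, at position -65 from the start, and is held by 1.85% of 35097 promoters. The TEAD word was found in 3 genes, EREG at -175, ADAM17 at -227 and a second start of EGFR at -114 (14% of promoters). That second EGFR window also held the AP-1 word at -232 and -136 (4.95% of promoters). TATAAA stood at -29 in AREG and -32 in EREG and in the same EGFR window (11.5% of promoters). No word searched was found in the windows of ERBB2, ERRFI1 and HBEGF, and other spellings of these elements were not searched. AREG and EREG lie on the plus strand of chromosome 4 (GRCh38), EREG at 74365145 to 74388749 and AREG at 74445136 to 74455005, which leaves 56386 bases between them. BTC lies 289753 bases after AREG, at 74744759 to 74794523 on the minus strand, and EPGN, the ligand epigen, 49837 bases before EREG.

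Levels can be compared between genes only per length, so reads were also divided by the length of each gene's canonical transcript (RPKM). AREG, the ligand amphiregulin, had the highest level of the 10 genes in every group, at 50.4 ± 4.31 RPKM in shBTLA and 37.3 ± 1.17 in shControl cells, and at 49.2 ± 1.76 in BTLA low and 49.3 ± 3.47 in BTLA high cells (SD, n = 3 each). EREG (epiregulin), ERBB2, ERRFI1 and EGFR followed in both groups of the knockdown, and the libraries of EREG and ERBB2 overlapped in shControl cells, as did those of ERRFI1 and EGFR. In the sort the order after AREG was ERBB2, ERRFI1, EREG and EGFR. ERBB2 and ERRFI1 overlapped in BTLA low cells (31.9 ± 1.53 and 31.7 ± 4.12 RPKM), and ERRFI1 and EREG overlapped in BTLA high cells (13.8 ± 2.46 and 13.5 ± 1.54 RPKM).

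TGFA (transforming growth factor alpha), HBEGF (heparin-binding EGF-like growth factor), BTC (betacellulin) and ADAM17 had means of 0.601 to 2.47 RPKM in all 4 groups, and most neighbours in this range overlapped. ERBB3 had the lowest level in shBTLA, shControl and BTLA high cells, at 0.408 ± 0.0838, 0.252 ± 0.0321 and 0.498 ± 0.0683 RPKM, the last overlapping with BTC. In BTLA low cells it stood seventh, at 1.56 ± 0.0572 RPKM, with no overlap with BTC below it or ADAM17 above it. The ranks depend on the length used. With all annotated exons joined in place of the canonical transcript, ADAM17 stood ninth in shBTLA, shControl and BTLA high cells. EREG and ERRFI1 stood above ERBB2 in BTLA high cells, and ERRFI1 stood above ERBB2 in shBTLA and BTLA low cells. AREG stayed first in all 4 groups.

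**Figure D1:**
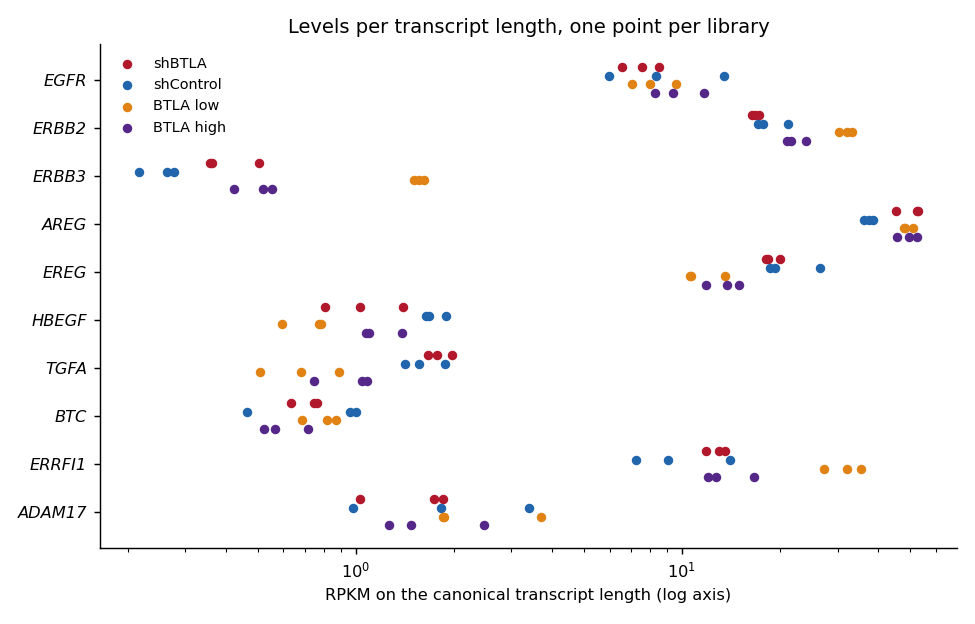
Level per canonical transcript length in RPKM (log axis) for the 10 genes, with 1 point per library and 4 groups per gene. AREG lies furthest right in every group, and the BTLA low points of ERBB3 lie at 1.51 to 1.62 RPKM, to the right of its BTLA high points at 0.422 to 0.553 RPKM.

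None of the 10 genes passed the adjusted threshold in the knockdown in limma, where 1.47% of all genes were called, and 0 were called by voom. At an unadjusted p under 0.05 there were 3, against 10.8% of all genes. The groups did not overlap for 3 of the 10 genes, ERBB3, AREG and HBEGF, against 17.9% of all genes tested. In the sort 4 of the 10 genes were called, against 25.4% of all genes. Of these ERBB3, ERRFI1 and ERBB2 were higher in BTLA low cells (3 of 10, against 19.1%) and HBEGF was lower (1 of 10, against 6.25%), and the same 4 genes were those whose groups did not overlap (41.8% of all genes). Under median-of-ratios scaling 3 of the 10 were higher (12% of all genes) and 3 lower (13.6%), with EGFR and EREG added to HBEGF. The median log2 fold change of the 10 genes was -0.12 in the knockdown and 0.19 in the sort, beside medians of -0.02 and 0.18 over all genes tested. In bulk RNA, fewer cells that express a gene and less RNA of it per cell cannot be told apart.

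**Figure D2:**
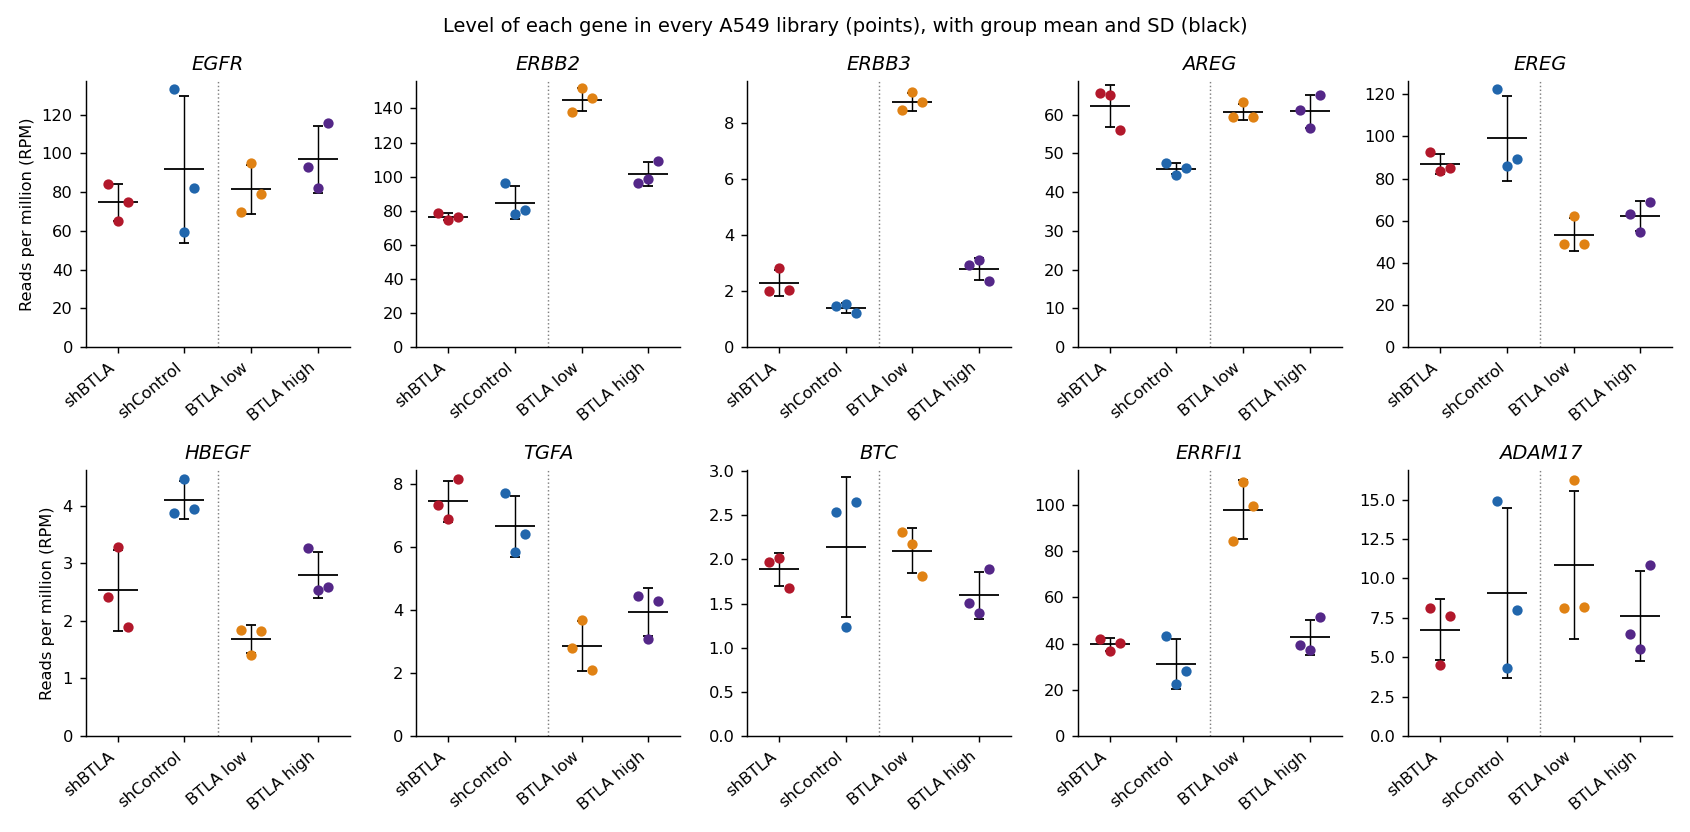
Level in RPM of each gene in every library (points), with the mean and SD of each group of 3 in black and a dotted line between the knockdown and the sort. The BTLA low points lie above all BTLA high points for ERBB2, ERBB3 and ERRFI1 and below them for HBEGF.

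ERBB3, the receptor for neuregulins, whose own kinase is weak and which signals mainly through its partners, had the largest change of the 10 genes. It had 8.47, 9.11 and 8.74 RPM in the BTLA low libraries (249, 378 and 284 reads), against 2.92, 3.11 and 2.37 RPM in the BTLA high libraries (103, 132 and 75 reads). Every BTLA low library was far above every BTLA high library. The fold change was 3.08 (log2 1.62, SE 0.16, limma adjusted p = 0.000204), and 1.45 on the log2 scale relative to the median of all genes. It was called under all 13 alternatives, at an adjusted p of 7.25e-05 to 0.00314.

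In the knockdown ERBB3 had 2.00, 2.83 and 2.04 RPM in shBTLA cells (76, 101 and 85 reads), against 1.48, 1.56 and 1.21 RPM in shControl cells (43, 48 and 47 reads). The groups did not overlap, and the log2 difference of 0.65 (SE 0.24) had an unadjusted p of 0.0267 and a limma adjusted p of 0.359. Of the 5 epithelial markers, 3 did not overlap between the groups in each comparison. These were CDH1 and KRT8 in both, EPCAM in the sort and KRT18 in the knockdown, while KRT19 overlapped in both. Of all genes tested, 17.9% did not overlap in the knockdown and 41.8% in the sort. CDH1, the E-cadherin of epithelial junctions, had 57.4 to 69.8 RPM in BTLA low and 16.6 to 24.2 RPM in BTLA high cells, and 20.3 to 23.9 RPM in shBTLA and 8.75 to 15.8 RPM in shControl cells. The part of these markers in the ERBB3 result was not tested.

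ERBB2, the receptor with no known ligand of its own and the preferred partner of the others, was also higher in BTLA low cells. It had 137.9, 151.8 and 146.0 RPM in BTLA low libraries, against 96.0, 98.8 and 109.3 RPM in BTLA high libraries. The lowest BTLA low library stood well above the highest BTLA high library. The fold change was 1.43 (log2 0.52, SE 0.08, limma adjusted p = 0.0023), or 0.34 on the log2 scale relative to the median of all genes, and it was called under all 13 alternatives (0.000553 to 0.0218).

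In the knockdown ERBB2 had 78.7, 74.8 and 76.2 RPM in shBTLA cells, against 96.1, 77.9 and 80.5 RPM in shControl cells. The groups overlapped, and the log2 difference was -0.14 (SE 0.12, limma adjusted p = 0.735), or -0.05 without shControl 1. ERBB2 lies at 39687914 to 39730426 on the plus strand of chromosome 17 and overlaps PGAP3 and MIEN1 on the other strand. In the sort PGAP3 had a log2 difference of 0.38 (limma adjusted p = 0.0682) and MIEN1 one of 0.08 (adjusted p = 0.676), and GRB7, an adaptor that binds ERBB2 and whose gene begins 7394 bases after MIEN1, one of 0.86 (adjusted p = 0.000844). Whether reads were counted by strand is not given in the sources used here, so reads in the shared stretches cannot be assigned with certainty.

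EGFR, the receptor that binds all 5 ligands, was not called in either comparison. It had 84.1, 65.0 and 74.9 RPM in shBTLA cells, against 133.3, 59.4 and 82.3 RPM in shControl cells. The shControl libraries spanned all shBTLA values, and the log2 difference of -0.22 (SE 0.26, limma adjusted p = 0.819) became 0.09 without shControl 1. In the sort EGFR had 69.8, 95.2 and 79.0 RPM in BTLA low cells, against 93.0, 82.1 and 115.6 RPM in BTLA high cells. These groups overlapped too, with a log2 difference of -0.25 (SE 0.15, limma adjusted p = 0.234). Relative to the median of all genes it was -0.43 and passed the threshold (adjusted p = 0.0225, and 0.0225 to 0.523 over all 13 alternatives).

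AREG had 65.5, 65.0 and 56.1 RPM in shBTLA cells (2491, 2318 and 2341 reads), against 47.4, 44.6 and 46.3 RPM in shControl cells (1381, 1375 and 1796 reads). All shBTLA libraries were above all shControl libraries, and the log2 difference was 0.43 (SE 0.11). It had the lowest unadjusted p of the 10 genes in the knockdown, 0.00457, and did not pass after adjustment over all genes (limma adjusted p = 0.151, and 0.0556 to 0.605 over 13 alternatives).

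In the sort AREG had 59.4, 63.2 and 59.5 RPM in BTLA low cells, against 61.2, 56.4 and 65.0 RPM in BTLA high cells. The BTLA low values lay inside the range of the BTLA high values, and the log2 difference was -0.00 (SE 0.09, limma adjusted p = 0.99), or -0.18 relative to the median of all genes (adjusted p = 0.0943).

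EREG, which lies next to AREG, was not called. It had 92.5, 83.4 and 85.0 RPM in shBTLA cells, against 122.4, 85.9 and 89.3 RPM in shControl cells. In the sort it had 49.1, 62.4 and 48.8 RPM in BTLA low cells, against 63.2, 54.8 and 68.9 RPM in BTLA high cells. Both pairs of groups overlapped, with log2 differences of -0.17 (SE 0.15, limma adjusted p = 0.753) and -0.22 (SE 0.12, adjusted p = 0.212). Relative to the median of all genes the difference in the sort was -0.40 and passed the threshold (adjusted p = 0.0146, and 0.0146 to 0.467 over 12 alternatives).

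HBEGF, a ligand of EGFR and ERBB4 that also serves as the receptor of diphtheria toxin, had almost the same fold change in both comparisons on the RPM scale. In the sort it had 1.84, 1.40 and 1.82 RPM in BTLA low cells (54, 58 and 59 reads), against 3.26, 2.54 and 2.59 RPM in BTLA high cells (115, 108 and 82 reads). In the knockdown it had 2.42, 3.28 and 1.89 RPM in shBTLA cells (92, 117 and 79 reads), against 3.88, 4.47 and 3.94 RPM in shControl cells (113, 138 and 153 reads). Neither pair of groups overlapped, with BTLA low cells below BTLA high cells and shBTLA cells below shControl cells.

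The log2 difference of HBEGF was -0.70 (SE 0.21, limma adjusted p = 0.0357) in the sort, or -0.87 relative to the median of all genes. In the knockdown it was -0.70 (SE 0.24, adjusted p = 0.29), or -0.67 with median-of-ratios scaling. The call in the sort was lost without any 1 library other than BTLA high 3 (adjusted p = 0.0588 to 0.144), and with no filter on low genes (adjusted p = 0.095). The knockdown and sort values differed by -0.00 on the log2 scale (SE 0.30), and by -0.05 to 0.18 over 4 alternatives, so their closeness depends on the scaling.

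TGFA had 7.32, 6.87 and 8.14 RPM in shBTLA cells, against 7.72, 5.83 and 6.42 RPM in shControl cells. In the sort it had 2.79, 3.67 and 2.09 RPM in BTLA low cells, against 4.45, 3.06 and 4.30 RPM in BTLA high cells. Both pairs overlapped, and the log2 differences were 0.17 (SE 0.17, limma adjusted p = 0.795) in the knockdown and -0.47 (SE 0.24, adjusted p = 0.179) in the sort, or -0.64 relative to the median of all genes (adjusted p = 0.0573). BTC, which binds EGFR and ERBB4, had 38 to 103 reads in knockdown libraries and 53 to 90 in sorted ones. Its groups overlapped in both, at 1.89 ± 0.186 RPM in shBTLA and 2.14 ± 0.791 RPM in shControl cells and at 2.10 ± 0.256 RPM in BTLA low and 1.60 ± 0.266 RPM in BTLA high cells (SD, n = 3 each). The log2 differences of BTC were -0.10 (limma adjusted p = 0.932) and 0.38 (adjusted p = 0.219), the second 0.21 relative to the median of all genes.

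ERRFI1, the protein also known as MIG6 that binds the EGFR kinase domain and blocks it, had 84.6, 110.0 and 99.6 RPM in BTLA low cells, against 39.4, 37.3 and 51.4 RPM in BTLA high cells. The groups were far apart, with a fold change of 2.31 (log2 1.205, SE 0.14, limma adjusted p = 0.00045), or 1.03 on the log2 scale relative to the median of all genes. The call held under all 13 alternatives (2.04e-05 to 0.00931). The overlapping antisense gene AL034417.4 was also higher, at 1.97 RPM in BTLA low cells against 0.793 RPM in BTLA high cells (log2 1.30, adjusted p = 0.0155). The means of ERRFI1 in these groups were 98.1 and 42.7 RPM. Without stranded counting, reads in the stretch that the 2 genes share cannot be assigned with certainty.

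In the knockdown ERRFI1 had 42.0, 36.8 and 40.2 RPM in shBTLA cells, against 43.4, 22.4 and 28.1 RPM in shControl cells. The groups overlapped through shControl 1 alone, and the log2 difference was 0.39 (SE 0.22, limma adjusted p = 0.613). Without shControl 1 it was 0.66 and called (adjusted p = 0.0238, and 0.0238 to 0.99 over 13 alternatives).

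ADAM17, the protease that releases AREG, EREG, HBEGF and TGFA from the membrane, had 8.11, 4.52 and 7.62 RPM in shBTLA cells, against 14.9, 4.31 and 8.01 RPM in shControl cells. In the sort it had 8.13, 16.3 and 8.19 RPM in BTLA low cells, against 6.49, 5.53 and 10.9 RPM in BTLA high cells. Both pairs overlapped, with log2 differences of -0.29 (SE 0.42, limma adjusted p = 0.852) and 0.49 (SE 0.31, adjusted p = 0.271), the second 0.31 relative to the median of all genes. The sort value was 0.77 and called without BTLA high 3 (adjusted p = 0.0443, and 0.0443 to 0.71 over 12 alternatives), and the knockdown value was 0.15 without shControl 1. ADAM17 overlaps IAH1 on the other strand, which had log2 differences of 0.13 in both comparisons and was not called, and EGFR overlaps EGFR-AS1, which had means under 0.1 RPM in all 4 groups.

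In each experiment the library with the highest ADAM17 level, shControl 1 and BTLA low 2, was the one with the lowest share of ribosomal protein reads (6.24% and 5.74%). EGFR, ERBB2, EREG and ERRFI1 were also highest in shControl 1 among the knockdown libraries, and ERBB2, ERBB3 and ERRFI1 in BTLA low 2 among the sorted ones. The calls of the last 3 genes in the sort held without BTLA low 2. The part of these shares in the levels was not tested.

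**Figure D3:**
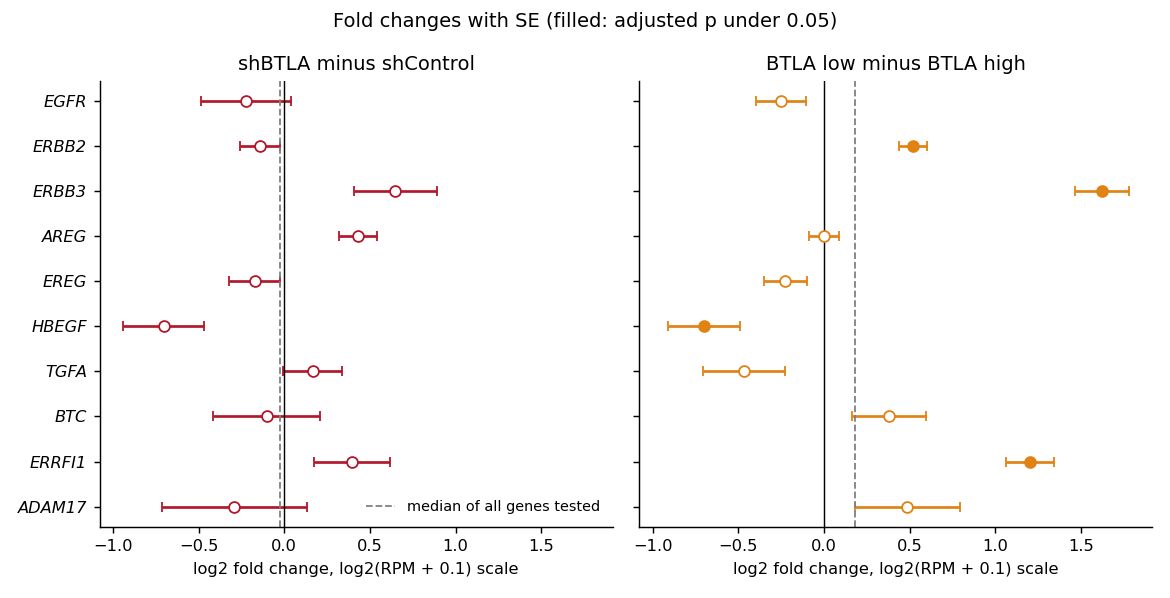
Log2 fold change with SE of the 10 genes in shBTLA against shControl cells (left) and BTLA low against BTLA high cells (right), filled where the adjusted p was under 0.05, with the median of all genes tested as a dashed line. No point is filled on the left, and ERBB2, ERBB3, HBEGF and ERRFI1 are filled on the right, where HBEGF (-0.70) is the only one below 0.

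The 2 experiments share no library, so the difference between their fold changes could be tested for each gene over all 12 libraries. ERBB2 was called, at -0.66 on the log2 scale for the knockdown minus the sort (SE 0.13, limma adjusted p = 0.017, and 0.0139 to 0.0275 over 4 alternatives), where 780 of 16160 genes (4.83%) were called. ERBB3 had the largest difference of the 10 genes, -0.98 (SE 0.26), and missed the threshold (adjusted p = 0.0524, and 0.0168 to 0.129 over 4 alternatives, of which 2 called it). The difference was 0.43 (SE 0.12, adjusted p = 0.0682) for AREG and -0.81 (SE 0.29, adjusted p = 0.122) for ERRFI1, and the AREG difference was called under median-of-ratios scaling (adjusted p = 0.0109). Over the 4 alternatives the differences ranged from -0.66 to -0.47 for ERBB2 and -0.975 to -0.784 for ERBB3. They ranged from -0.81 to -0.62 for ERRFI1 and 0.424 to 0.625 for AREG. None of these alternatives left a library out. Hairpin and vector were present in only 1 of the experiments and sorting in the other, and what each brings to such a difference cannot be told apart.

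Of 40 other genes of the pathway, also chosen with earlier results known, 35 passed the filter on reads in the knockdown and 36 in the sort. The receptor ERBB4 and the ligands EPGN and NRG3 did not pass in either. In the knockdown 0 of 35 were called in limma (1.47% of all genes) and 0 by voom, with 5 at an unadjusted p under 0.05 (14.3%, against 10.8% of all genes). Of the 35 log2 differences, 31 were below 0 (88.6%, against 53.7% of all genes, median -0.26, beside -0.02 for all genes). The genes were measured in the same libraries, so these signs are not independent. Whether the lean rests on 1 shControl library was not tested. Leaving out 1 library gave 0 to 3 calls, with 3 without shControl 2 and 1 without shControl 1. Over all genes the calls then rose to 471 of 16425 without shControl 2 and 484 of 16406 without shControl 1. In the sort 11 of 36 were called (against 25.4% of all genes), with a median of 0.26 beside 0.18 for all genes. The calls were 8 higher (against 19.1% of all genes) and 3 lower (against 6.25%). Under median-of-ratios scaling 5 were higher (13.9%, against 12% of all genes) and 4 lower (11.1%, against 13.6%), with a median of 0.08. Leaving out 1 library gave 6 to 20 calls, with 6 without BTLA low 3, 7 without BTLA low 2 or BTLA high 1, and 20 without BTLA high 3. Over all genes the calls in the sort were 2128 of 16517 without BTLA low 3 and 5985 of 16694 without BTLA high 3. They were 3061 of 16424 without BTLA low 2 and 1996 of 16652 without BTLA high 1.

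Among the ligands, NRG1, a neuregulin that binds ERBB3, was lower, at 108 ± 5.30 RPM in BTLA low and 177 ± 19.7 RPM in BTLA high cells (log2 -0.70, limma adjusted p = 0.00104), or -0.88 on the log2 scale relative to the median of all genes. NRG4, a ligand of ERBB4, was higher (5.08 ± 0.771 against 2.83 ± 0.535 RPM, log2 0.83, adjusted p = 0.0152), as was EGF itself (1.85 ± 0.57 against 0.886 ± 0.275 RPM, log2 0.98, adjusted p = 0.044). The inactive rhomboids that carry ADAM17 to the cell surface were called in opposite directions, with RHBDF1 higher (log2 0.36, adjusted p = 0.0195) and RHBDF2 lower (log2 -0.45, adjusted p = 0.0145) in BTLA low cells. Relative to the median of all genes, RHBDF2 (-0.63) and NRG4 (0.66) were still called, while RHBDF1 (0.18, adjusted p = 0.114) and EGF (0.82, adjusted p = 0.0739) were not.

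Of the 12 adaptors and effectors, EPS8, a substrate of EGFR that acts on actin, was higher at 68.0 ± 11.3 RPM in BTLA low and 29.2 ± 7.05 RPM in BTLA high cells (log2 1.23, limma adjusted p = 0.00114). GRB7 was higher at 76.3 ± 6.44 against 42.2 ± 5.39 RPM, and SOS2, an exchange factor for RAS, was higher by 0.56 on the log2 scale (adjusted p = 0.0347). Of the 17 negative regulators and trafficking genes tested, the ubiquitin ligase CBLB (log2 0.66, adjusted p = 0.00858) and LRIG3 (log2 0.92, adjusted p = 0.00223) were higher and SH3KBP1, an adaptor of CBL in receptor uptake, was lower (log2 -0.48, adjusted p = 0.00604). GRB2, SHC1 and STAT3, which carry the signal inward from the receptors, had log2 differences of 0.09, 0.03 and 0.03 in the sort, or -0.09, -0.14 and -0.15 relative to the median of all genes, and were not called. Relative to that median, EPS8 (1.05), GRB7 (0.68), CBLB (0.49), LRIG3 (0.74) and SH3KBP1 (-0.66) were still called, SOS2 (0.38, adjusted p = 0.0619) was not, and UBASH3B, a phosphatase-like regulator of receptor uptake, was called lower (-0.39, adjusted p = 0.0189).

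**Figure D4:**
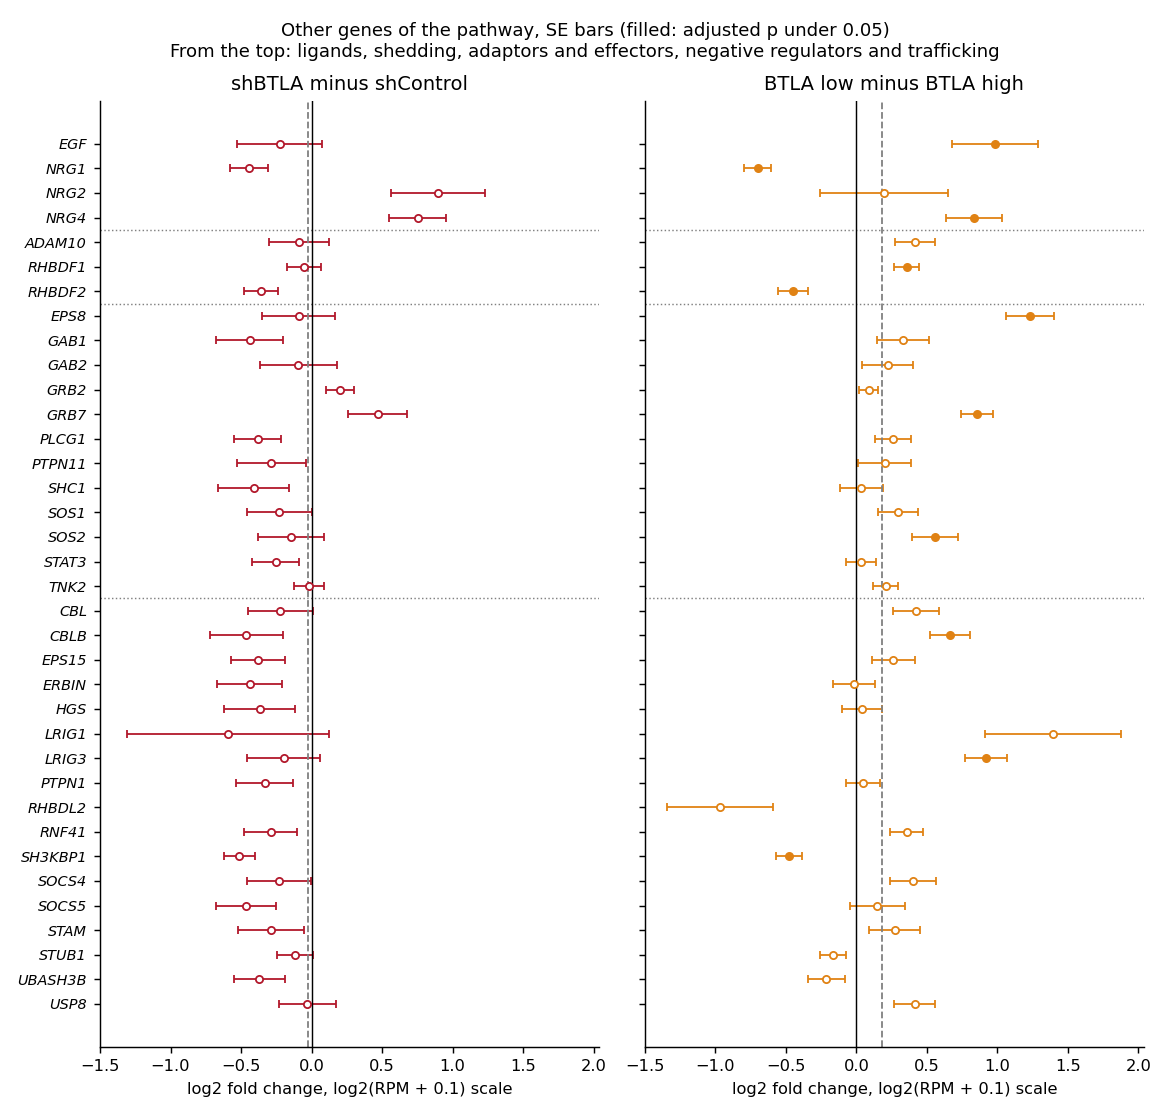
Log2 fold change with SE of the other genes of the pathway in shBTLA against shControl cells (left) and BTLA low against BTLA high cells (right), filled where the adjusted p was under 0.05, with dotted lines between roles. No gene is filled on the left, and 11 are filled on the right, where EPS8 (1.23) lies highest and NRG1 (-0.70) lowest among the filled ones.

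Across the 12 libraries, log2 levels were centred within each experiment and compared among 16160 genes by Pearson's r. The genes that ran most like a member are given as a description, since the libraries share groups and composition. For ERBB3 they were ABCA7 (0.983), a lipid transporter, ARHGAP4 (0.977) and SLC45A1 (0.973). For ERBB2 they were FN1 (0.991), which encodes fibronectin, STOM (0.988) and PNRC1 (0.988). For ERRFI1 they were LRP5 (0.994), a coreceptor of WNT, the chemokine CXCL5 (0.993) and TOX3 (0.991).

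For EGFR they were MYOF (0.988), DDX21 (0.984) and AHNAK (0.983), and for ADAM17 BRD2 (0.992), SF3B1 (0.990) and POLR2B (0.989), which act in chromatin, splicing and transcription. For AREG the likeness was weaker, with UNC13D (0.927), HADHA (0.924) and RNF149 (0.919). For HBEGF they were C9orf40 (0.948), DNAH17-AS1 (0.945) and CDA (0.945), the cytidine deaminase. Their log2 differences were -0.31, -0.67 and -1.04 in the knockdown and -0.34, -0.48 and -1.01 in the sort. These genes were picked by likeness to HBEGF, so the shared direction is not separate evidence.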

How the data were processed

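The 12 libraries were grouped by their labels. Per the labels and methods, the authors used Trim Galore 0.6.6 for trimming, STAR for alignment to hg38 and featureCounts for counting, and deposited 1 RPKM value per gene and library. The deposited result tables of their own comparisons also hold log2 fold changes, mean log2 CPM, a likelihood ratio score, p-values and FDR. From those tables only gene names and coordinates were taken. Whether counting used strand is not stated in the sources used here.

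The deposited RPKM carried the span of another gene, the one at the same place in the sorted list of gene IDs. Undoing this division returned whole reads for 58797 genes (100% of 279884 values within 0.02 of a read). Of the other 1820 genes, 764 were 0 throughout and 1056 had a searched length. Both comparisons were fitted separately in limma 3.58.1 under R 4.3.3 (lmFit, then eBayes with trend), with a pseudocount of 0.1 before log2. A gene entered where 3 or more of the 6 libraries had 10 reads or more. Alternatives were the deposited RPKM as they stand, voom, median-of-ratios scaling, a pseudocount of 1, no filter, a minimum of 30 reads, each library left out and a replicate block. The fit was tested on simulated data. The genes, pathway list and markers were chosen with earlier results of these data known. The 3 genes with the highest Pearson's r, after centring within each experiment, are named as most alike for the followed genes except EREG, TGFA and BTC. Transcript lengths came from GENCODE on GRCh37.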

Additional observations from a re-analysis of the deposited data

Results flagged for a closer look

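ERBB2 is listed because its fold change differed between the experiments by a test of the difference itself, at -0.66 on the log2 scale for the knockdown minus the sort (SE 0.13, limma adjusted p = 0.017). This difference ranged from -0.66 to -0.47 over 4 alternatives, none of which left a library out. ERBB2 was higher in 3 of 3 BTLA low libraries than in any BTLA high library, while the shBTLA and shControl libraries overlapped. Of all genes tested, 41.8% had groups that did not overlap in the sort and 17.9% in the knockdown.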

How the results depend on the processing

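Of 252 values of the 10 genes under the alternatives, 232 kept their direction and side of the threshold, 7 (all of HBEGF in the sort) lost the call, 4 gained one and 9 changed sign, and the causes were not tested. EREG, HBEGF, BTC and ADAM17 could not be fitted on the deposited RPKM, where they were below the minimum. The AREG value in the sort was 0.004 with voom. With 1 library left out, the calls among the 10 genes in the knockdown ranged from 0 to 1, among the pathway list from 0 to 3 and 6 to 20 in the sort, and over all genes from 25 to 484 and 1996 to 5985 in the sort. The log2 difference then ranged from -0.496 to 0.087 for EGFR, -0.44 to 0.082 for BTC and -0.73 to 0.15 for ADAM17 in the knockdown, and from -0.055 to 0.047 for AREG in the sort.

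Median-of-ratios scaling gave 1 pathway call in the knockdown. Of the 10 genes, 2 differed between the experiments under that scaling (ERBB2 and AREG), and 2 with a pseudocount of 1 or a minimum of 30 reads (ERBB2 and ERBB3). The deposited RPKM gave 115 calls over all genes in the knockdown and 2528 in the sort. With a replicate block the knockdown had 545 calls over all genes and 1 in the pathway list, and the sort 2187 and 6. Same-numbered knockdown libraries correlated at 0.218, 0.406 and -0.039, and differently numbered ones had r between -0.402 and 0.256. Among sorted cells the same-numbered values were 0.0683, -0.373 and -0.165, and the highest r, 0.41, belonged to differently numbered libraries. The sort values thus gave no sign of pairing by number. For the knockdown, where the highest r was same-numbered, so few values cannot decide whether the numbers pair the libraries. The block gave an adjusted p of 0.0831 for HBEGF in the sort. HBEGF, BTC and ERBB3 had few reads (38 to 153 per library in the knockdown), which limits their precision.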
